A study of Mus musculus with 12 samples.

Results

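The 6 genes described here restrain immune responses, and their transcripts were followed through the spleen cells of tumor-bearing mice: Cd274 (PD-L1), Pdcd1lg2 (PD-L2), Vsir (VISTA) and Lgals9 (galectin-9), which encode checkpoint ligands, and Entpd1 (CD39) and Nt5e (CD73), which encode adenosine-making enzymes of the cell surface. They were chosen by name from the 17476 genes listed in the count tables, and all 6 were found, and passed the low-count filter, in both cell types. RNA-seq had been done on 12 libraries in 4 groups of 3, all from the spleens of mice labelled WT. Neutrophils, selected with an antibody to Ly6G, came from mice 12 h after cryo-thermal therapy (CTT), a local treatment that freezes and heats the tumor, and from tumor-bearing mice that served as control. Monocytes, selected with an antibody to CCR2, all came from mice 5 days after CTT, with anti-Ly6G, the antibody by which neutrophils are commonly depleted, or without it. The libraries are labelled as biological replicates. The sources used here do not give the strain, age or tumor, the mice behind a library or the purity of the cells, so p-values cover only library-to-library spread, which may be technical in part. No monocytes without CTT were analysed here, so the monocyte comparison is of the antibody on top of CTT.

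PD-L1 and PD-L2 are B7-family proteins that bind the receptor PD-1 on T cells and dampen their activation. VISTA is a related inhibitory protein of myeloid cells that acts on T cells through other partners, and galectin-9 is a sugar-binding protein that engages the receptor TIM-3. CD39 cleaves extracellular ATP and ADP to AMP, and CD73 cleaves AMP to adenosine, which restrains leukocytes through adenosine receptors. Interferon-gamma is the best-known inducer of PD-L1.

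RefSeq (GRCm38.p6, the mm10 build) lists each gene as protein coding. Cd274 (Entrez gene 60533) occupies 29362107 to 29388095 of chromosome 19, and Pdcd1lg2 (58205) follows on the same strand from 29410919 to 29472927, with 22823 bases between them. Entpd1 (12495) lies on chromosome 19 from 40612366 to 40741602, Vsir (74048) on chromosome 10 from 60346851 to 60430294, Lgals9 (16859) on chromosome 11 from 78962979 to 78984924 and Nt5e (23959) on chromosome 9 from 88327609 to 88372089. Vsir lies inside the region of Cdh23 on the opposite strand and shares 0 exon bases with it. An antisense gene, AC119228.1, shares 511 exon bases (14.1%) with Cd274 in GENCODE M21, and without a stated strand setting its reads cannot be told apart from those of Cd274.

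The 250 bases upstream of the RefSeq transcription start are shown for the 2 genes that rose in monocytes (Vsir, Lgals9) and for the neighbouring PD-1 ligand genes, 5′ to 3′ on the strand of each gene (GRCm38.p6). The intervals are chr10:60346601-60346850 for Vsir and chr11:78984925-78985174 for Lgals9. They are chr19:29367188-29367437 for Cd274 and chr19:29410669-29410918 for Pdcd1lg2. The Cd274 start used in that table lies inside the annotated span of the gene. Capitals mark matches to the motifs that were searched.
Vsir: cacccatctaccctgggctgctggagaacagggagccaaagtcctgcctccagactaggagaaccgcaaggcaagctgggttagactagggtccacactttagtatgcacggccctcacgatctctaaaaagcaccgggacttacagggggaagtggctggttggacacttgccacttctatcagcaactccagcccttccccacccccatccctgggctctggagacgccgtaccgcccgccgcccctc
Lgals9: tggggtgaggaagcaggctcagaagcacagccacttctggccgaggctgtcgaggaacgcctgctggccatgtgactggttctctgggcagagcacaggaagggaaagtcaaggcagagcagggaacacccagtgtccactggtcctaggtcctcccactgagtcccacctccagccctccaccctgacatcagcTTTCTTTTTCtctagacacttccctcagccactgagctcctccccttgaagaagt
Cd274: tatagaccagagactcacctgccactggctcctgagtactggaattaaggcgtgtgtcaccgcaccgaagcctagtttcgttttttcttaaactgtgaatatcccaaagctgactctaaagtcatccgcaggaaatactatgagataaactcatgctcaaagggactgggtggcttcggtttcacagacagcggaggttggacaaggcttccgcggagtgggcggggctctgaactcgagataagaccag
Pdcd1lg2: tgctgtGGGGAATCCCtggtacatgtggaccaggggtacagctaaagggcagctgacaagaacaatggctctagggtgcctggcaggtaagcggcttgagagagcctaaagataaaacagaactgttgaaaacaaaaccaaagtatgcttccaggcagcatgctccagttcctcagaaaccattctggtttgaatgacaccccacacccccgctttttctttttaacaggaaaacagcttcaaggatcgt
Each start was searched on both strands over 300 bases, from 250 before it to 50 after it. The motifs reported were an element of interferon regulatory factors (GAAANNGAAA), the kappa B element and the core of the hypoxia element (ACGTG). Lgals9 held 2 matches to the interferon regulatory factor element on the reverse strand, TTTCTTTTTC from −55 to −46 and TTTCTGTTTC from 15 to 24 relative to the start, while 3.44% of 32851 promoter sequences held at least 1. Pdcd1lg2 held a kappa B site, GGGGAATCCC, from −244 to −235, which matched on both strands (8.46% of promoters held at least 1). Cd274 held 1 hypoxia core after its start, from 39 to 43 (19.6%). Neither Vsir, Entpd1 nor Nt5e held a match to these motifs in the windows. GC content ranged widely, at 71% for Nt5e, 63.7% for Vsir, 58% for Lgals9, 52.7% for Cd274 and 46% for Pdcd1lg2. Entpd1 was searched at more than 1 start, with 64% and 48.7%. The median over all promoters was 52.7%. A match describes letters only and not binding.

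The neutrophil libraries held 30942849 to 34935547 counted reads and the monocyte libraries 31865982 to 35956571, and the members had between 114 (Nt5e) and 20331 (Vsir) reads in a library. Control neutrophil replicate 1 stood apart, with a Pearson correlation of log2 values of 0.916 to 0.958 to the remaining neutrophil libraries, which reached 0.972 to 0.986 among themselves. Erythroid markers, as summed reads scaled to library size (CPM), stood at 223 to 431 CPM in CTT neutrophils and at 7632, 1320 and 432 CPM in control replicates 1 to 3. Cell cycle genes stood at 545 to 757 CPM in CTT neutrophils and at 3336, 816 and 671 CPM in the same controls. The labelled cell types were checked by their own markers, and Ly6g went against the labels, being higher in anti-Ly6G monocytes than in neutrophils selected for Ly6G. Ly6g stood at 12.7 to 25.5 CPM in CTT neutrophils and 9.52 to 14.7 CPM in control neutrophils. In anti-Ly6G monocytes Ly6g stood at 48.5 to 62.7 CPM and in CTT monocytes at 11.7 to 16.1 CPM. Ccr2 was read in all 12 libraries (76.8 to 587 CPM), and its highest level was in monocytes. It stood at 122 to 194 CPM in CTT neutrophils and 76.8 to 120 CPM in control neutrophils. Cells are therefore named here only as the labels name them. All 94 genes of the 12 marker lists had reads in every library, and B cell markers summed to 2539 to 6804 CPM, so that reads of other spleen cells were present throughout. In such bulk samples, fewer cells of a type and less RNA per cell cannot be told apart.

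Per length of transcript, as FPKM, the 6 genes fell into an abundant and a scarce set. Vsir and Lgals9 were the most abundant, Vsir at 52.9 to 122 FPKM and Lgals9 at 60.3 to 101 FPKM over the 12 libraries, within the top 7.97% and 6.35% of listed genes. Cd274 ranged from 15.1 to 58.5 FPKM and Entpd1 from 19.6 to 41.1 FPKM. Pdcd1lg2 (2.62 to 5.54 FPKM) and Nt5e (0.911 to 4.21 FPKM) were the scarce members, near the middle of all listed genes. The adenosine enzymes stood at different levels, with 7.26 to 21.5 times more Entpd1 than Nt5e by FPKM within a library. The counts and FPKM imply a length of 3580 bases for Nt5e and 4693 for Entpd1, against 8602 and 5580 exon bases in GENCODE M21. For Pdcd1lg2 they imply 3415 bases, against 1961. The size of levels and ratios between genes therefore depends on the length used.

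By the deposited FPKM, the order of the members differed with the selected cell. The counts and FPKM imply a length of 1586 bases for Lgals9 and 4846 for Vsir, against 2137 and 5014 exon bases in GENCODE M21. The order of these genes in neutrophils therefore depends on the length used. Lgals9 stood above Vsir in 6 of 6 neutrophil libraries, at 80.4 to 82.1 against 60.9 to 78.0 FPKM after CTT and 88.1 to 101 against 52.9 to 59.7 FPKM in control. Vsir stood above Lgals9 in 6 of 6 monocyte libraries, at 106 to 122 against 77.7 to 84.2 FPKM with anti-Ly6G and 80.1 to 103 against 60.3 to 64.7 FPKM with CTT alone. Cd274 stood above Entpd1 in 3 of 3 CTT neutrophil libraries (35.0 to 58.5 against 25.2 to 33.8 FPKM) and in 2 of 3 control neutrophil libraries, where the ranges overlapped. It stood below Entpd1 in 6 of 6 monocyte libraries, at 15.5 to 18.3 against 28.1 to 30.0 FPKM with anti-Ly6G and 18.8 to 23.1 against 32.96 to 41.1 FPKM with CTT alone. Pdcd1lg2 and Nt5e did not overlap in CTT neutrophils (3.66 to 4.55 against 2.52 to 3.02 FPKM) and overlapped in the other 3 groups. The tables of the cell types were deposited separately and their cells differed in selection and in time after CTT, so levels were not tested between cell types.

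**Figure D1:**
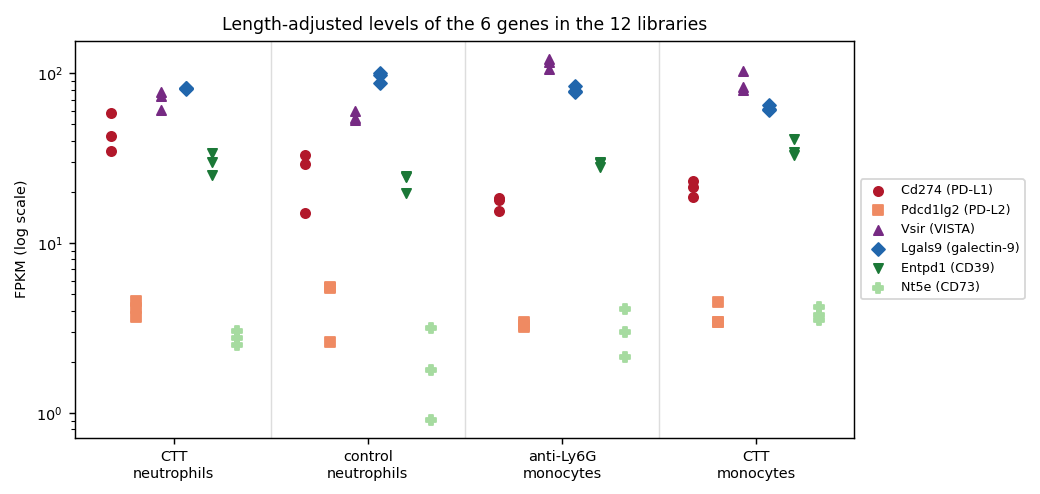
Deposited FPKM (log axis) of the 6 genes in each of the 12 libraries, grouped by cell type and treatment, with 1 point per library. Vsir and Lgals9 lie highest in each group, and Pdcd1lg2 and Nt5e lie lowest, at 5.54 FPKM or below.

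In neutrophils 12 h after CTT, the level of PD-L1 transcript was higher than in control neutrophils in every library, but no member passed the test over all genes. Cd274 had 173, 145 and 252 CPM in the CTT libraries, against 61.4, 116 and 132 CPM in the control libraries. The groups did not overlap, CTT replicate 3 was the highest and control replicate 1 by far the lowest. Its log2 fold change was 0.88 (SE 0.32, 95% interval 0.13 to 1.64), with an edgeR quasi-likelihood adjusted p = 0.338. Without control replicate 1 it was 0.62 (edgeR adjusted p = 0.206), and the remaining groups still did not overlap.

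Its neighbour Pdcd1lg2 did not share this pattern. It had 12.45, 14.3 and 16.4 CPM in CTT neutrophils, against 8.93, 18.1 and 18.5 CPM in control neutrophils, so the groups overlapped and control replicate 1 was again the lowest. The log2 fold change was −0.08 (SE 0.29, interval −0.77 to 0.61, edgeR adjusted p = 0.912), and its sign changed when CTT replicate 1 or control replicate 2 or 3 was left out (0.02, 0.07 and 0.09). The ratio of the neighbours, taken within each library, separated the groups: Cd274 had 11.6, 8.48 and 12.9 times the FPKM of Pdcd1lg2 in CTT neutrophils, against 5.74, 5.35 and 5.95 times in control neutrophils. Control replicate 1, which was low for each gene, did not stand apart in this ratio. The difference was 0.93 on the log2 scale (exact permutation test, two-sided, p = 0.10, the smallest that 3 against 3 libraries allow, 1 of 8 ratio comparisons made).

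Vsir, the VISTA gene, had 294, 384 and 374 CPM in CTT neutrophils, against 264, 280.0 and 250.4 CPM in control neutrophils. All CTT libraries lay above all control libraries, CTT replicate 1 closest to them (log2 fold change 0.41, SE 0.14, edgeR adjusted p = 0.319). Lgals9 had the smallest SE of the 6 members in this comparison, with 129, 129 and 137 CPM in CTT neutrophils, against 159, 135 and 151 CPM in control neutrophils. Its groups overlapped, with a log2 fold change of −0.17 (SE 0.11, interval −0.44 to 0.09, edgeR adjusted p = 0.465).

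Of the adenosine pair, Entpd1 had 158, 144 and 125 CPM in CTT neutrophils, against 91.7, 111 and 113 CPM in control neutrophils. The groups did not overlap, and the log2 fold change was 0.43 (SE 0.14, interval 0.09 to 0.76, edgeR adjusted p = 0.313). Nt5e, the CD73 gene, had 8.99, 10.99 and 10.4 CPM in CTT neutrophils, against 3.25, 6.16 and 10.99 CPM in control neutrophils. Control replicate 3 reached the CTT level while control replicate 1 was the lowest of the 12 libraries, and the log2 fold change was 0.58 (SE 0.41, interval −0.39 to 1.54, edgeR adjusted p = 0.5). It was 0.25 without control replicate 1 and 1.11 without control replicate 3.

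By this test 0 of 6 members rose and 0 fell after CTT, where 0.567% of 13058 tested genes were called, all of them rising. Unadjusted, 3 of 6 had an edgeR p below 0.05 (14% of all genes did), and DESeq2 and limma-voom also called 0 of 6. In 3 of 6 members the groups did not overlap, against 24.7% of all tested genes. Over the members the median log2 fold change was 0.42, against −0.02 over all tested genes. Neutrophil markers summed to 7712 to 12820 CPM in CTT libraries, against 4124 to 6091 CPM in control libraries, with 2 of 12 that rose. CTT replicate 3, highest for Cd274, was also highest for these markers. The same held for the classical monocyte, nonclassical monocyte and dendritic cell sums (3004, 3987 and 1306 CPM), but not for B cell or red pulp macrophage markers. CTT replicates 1 and 2 went the other way, with neutrophil marker sums of 7712 and 8126 CPM and Cd274 at 173 and 145 CPM. Classical monocyte markers summed to 1813 to 3004 against 1663 to 2010 CPM, with 1 of 8 that rose (Vcan, named after its value was seen, 1.78, edgeR adjusted p = 0.0467). Nonclassical monocyte markers summed to 2328 to 3987 against 1308 to 2001 CPM, with 0 of 6 called (median log2 fold change −0.04). Nr4a1 was the largest part of that sum (1814, 1599 and 3291 against 625, 1021 and 1183 CPM). Cx3cr1 and Spn were lower after CTT without overlap. Dendritic cell markers summed to 896 to 1306 against 619 to 821 CPM, with 0 of 9 called (median 0.10). Among them Ccr7 (419, 348 and 668 against 108, 271 and 278 CPM) and Flt3 were higher without overlap. Xcr1, Clec9a, Zbtb46 and Siglech were lower without overlap, all named after their values were seen. The part of these cells in the members' values was not tested.

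**Figure D2:**
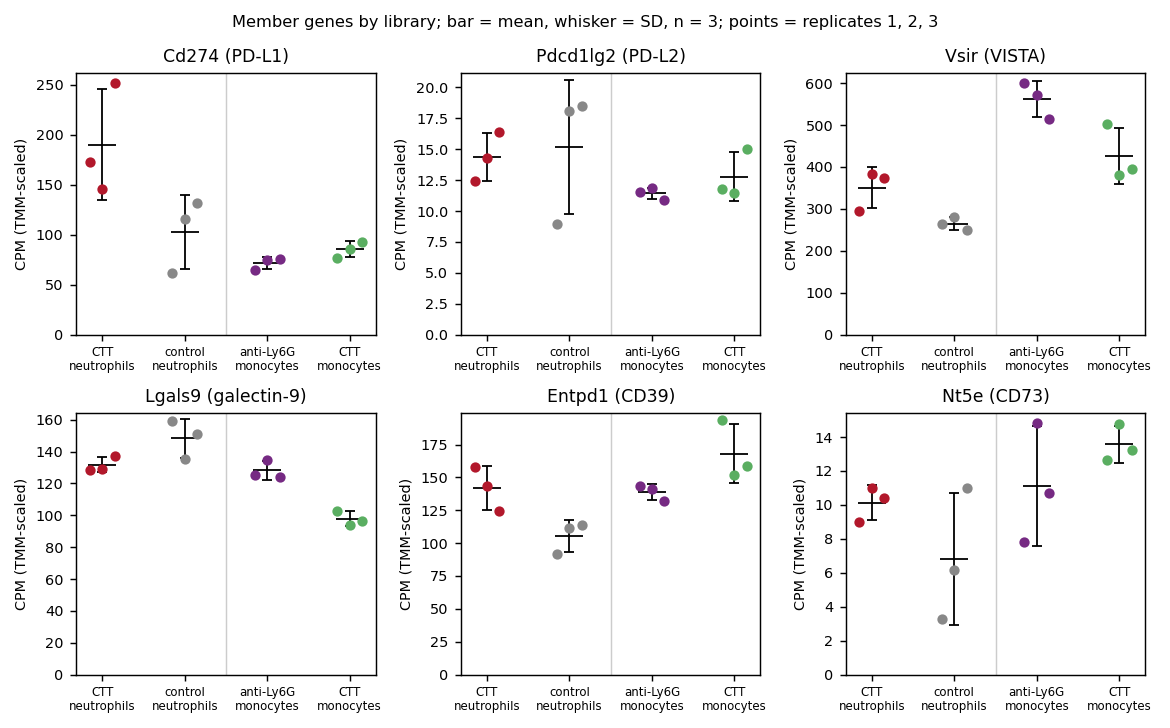
TMM-scaled CPM of each gene in the 4 groups, with 1 point per library in replicate order and the mean and SD of 3 libraries. Cd274 is highest in CTT neutrophils (145 to 252 CPM), and Lgals9 and Vsir are higher in anti-Ly6G monocytes than in CTT monocytes without overlap.

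In monocytes 5 days after CTT, galectin-9 and VISTA transcripts were called higher in mice given anti-Ly6G, and no member was called lower. Cd274 and Entpd1 lay lower without overlap, and their calls differed between settings. Lgals9 had 125, 135 and 124 CPM in anti-Ly6G monocytes, against 103, 94.0 and 96.2 CPM in CTT monocytes. The groups lay clearly apart, and Lgals9 rose, its log2 fold change being 0.39 (SE 0.06, 95% interval 0.25 to 0.54), which is 1.31-fold (edgeR adjusted p = 0.00468). It was called in 18 of 18 alternative settings, with log2 fold changes from 0.34 to 0.43 and adjusted p-values up to 0.0397.

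Vsir rose by nearly the same amount with a wider spread. It had 600.4, 571 and 515 CPM in anti-Ly6G monocytes, against 502, 381 and 394 CPM in CTT monocytes. CTT replicate 1 came close to the lowest anti-Ly6G library without reaching it. The log2 fold change was 0.40 (SE 0.11, interval 0.15 to 0.65, edgeR adjusted p = 0.0402). The call was lost when any library other than CTT replicate 1 was left out (adjusted p-values 0.0557 to 0.159), and without CTT replicate 1 the log2 fold change was 0.53 (adjusted p = 0.000692). Vsir also missed the threshold under DESeq2 size factors (edgeR adjusted p = 0.0518) and upper-quartile scaling (edgeR adjusted p = 0.0542).

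The other 4 members had negative fold changes with anti-Ly6G and did not pass. Cd274 had 64.6, 74.6 and 75.2 CPM in anti-Ly6G monocytes, against 77.1, 86.0 and 93.0 CPM in CTT monocytes. All anti-Ly6G libraries lay below all CTT libraries, the nearest by a small margin (log2 fold change −0.26, SE 0.09, interval −0.46 to −0.06, edgeR adjusted p = 0.0832). Cd274 passed in DESeq2 (adjusted p = 0.0424) and without CTT replicate 1 (edgeR adjusted p = 0.0182). Entpd1 had 144, 141 and 132 CPM in anti-Ly6G monocytes, against 194, 152 and 159 CPM in CTT monocytes, again without overlap and with CTT replicate 1 as the highest (−0.28, SE 0.09, interval −0.49 to −0.06, edgeR adjusted p = 0.0793). It passed in DESeq2 (adjusted p = 0.0421) and with upper-quartile scaling (edgeR adjusted p = 0.042) or library totals (edgeR adjusted p = 0.0464), and without CTT replicate 1 its log2 fold change was −0.16 (edgeR adjusted p = 0.0903).

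The scarce members overlapped between the groups. Pdcd1lg2 had 11.5, 11.9 and 10.9 CPM in anti-Ly6G monocytes, against 11.8, 11.5 and 15.1 CPM in CTT monocytes (−0.16, SE 0.13, interval −0.46 to 0.14, edgeR adjusted p = 0.456). Nt5e had 7.80, 14.8 and 10.7 CPM in anti-Ly6G monocytes, against 12.6, 14.8 and 13.3 CPM in CTT monocytes (−0.29, SE 0.21, interval −0.76 to 0.18, edgeR adjusted p = 0.391). Nt5e was at −0.089 without anti-Ly6G replicate 1 and at −0.55 without anti-Ly6G replicate 2, and Pdcd1lg2 at −0.03 without CTT replicate 3. The Nt5e interval still holds a change of −0.76 on the log2 scale.

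**Figure D3:**
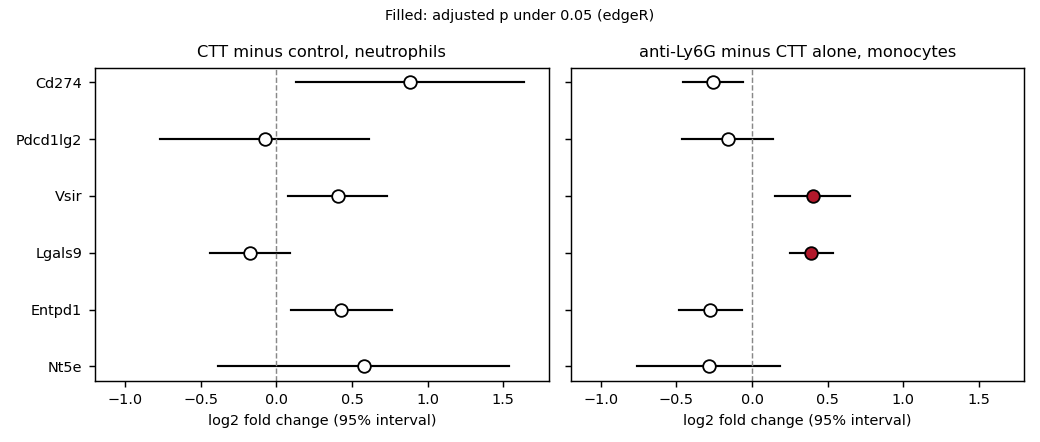
Log2 fold change of each gene with its 95% interval from edgeR, CTT minus control neutrophils on the left and anti-Ly6G minus CTT monocytes on the right, with filled points at an adjusted p under 0.05. Only Vsir (0.40) and Lgals9 (0.39) in monocytes are filled.

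In all, 2 of 6 members rose with anti-Ly6G, where 10.2% of 13294 tested genes rose and 5.12% fell, 15.3% together (1354 and 681 genes, but 1069 and 1030 with upper-quartile scaling). Unadjusted, 4 of 6 had an edgeR p below 0.05, against 31% of all tested genes. The groups did not overlap in 4 of 6 members, against 36% of all tested genes, with the anti-Ly6G libraries higher in 2 of 6, against 20.6%, and lower in 2 of 6, against 15.4%. The members' median log2 fold change was −0.21, against 0.00 over all tested genes. Of the neutrophil markers 11 of 12 rose, with a sum of 13350 to 18060 CPM in anti-Ly6G libraries, against 4817 to 6646 CPM in CTT libraries. Classical monocyte markers summed to 4855 to 5849 against 3413 to 5544 CPM (6 of 8 rose, 1 fell). Red pulp macrophage markers summed to 6864 to 7640 against 8977 to 15190 CPM (7 of 10 fell), highest in CTT replicate 1, and B cell markers to 2539 to 3497 against 3281 to 4797 CPM (2 of 9 fell). Cell cycle genes summed to 1225 to 1433 against 915 to 1066 CPM (5 of 7 rose), and erythroid markers to 495 to 824 against 850 to 1348 CPM (1 of 7 fell). Whether these shifts carry the members' values was not tested.

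The abundant ligands were also set against Cd274 within each library, as ratios chosen after the members' levels were seen. Lgals9 had 5.01, 4.67 and 4.26 times the FPKM of Cd274 in anti-Ly6G monocytes, against 3.45, 2.82 and 2.67 times in CTT monocytes. Vsir had 7.85, 6.47 and 5.78 times the FPKM of Cd274 in anti-Ly6G monocytes, against 5.50, 3.74 and 3.58 times in CTT monocytes. Neither ratio overlapped between the groups (log2 differences 0.65 and 0.66, exact permutation p = 0.10 each, the smallest possible with 3 against 3 libraries, so that no ratio could pass 0.05). The ratio of Cd274 to Pdcd1lg2 did overlap, at 4.68, 5.25 and 5.74 in anti-Ly6G monocytes, against 5.47, 6.24 and 5.16 in CTT monocytes (exact permutation p = 0.50). In CTT neutrophils Lgals9 had 1.92, 2.30 and 1.40 times the FPKM of Cd274, against 6.69, 3.01 and 2.96 times in control neutrophils (log2 difference −1.09, exact permutation p = 0.10). The Vsir to Cd274 ratio overlapped in neutrophils, averaging 1.64 after CTT and 2.42 in control (log2 difference −0.52, exact permutation p = 0.30). The Entpd1 to Nt5e ratio overlapped in neutrophils (9.11 to 13.4 after CTT, 7.88 to 21.5 in control, exact permutation p = 0.60) and in monocytes (7.26 to 14.04 with anti-Ly6G, 7.83 to 11.7 with CTT alone, p = 0.90).

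**Figure D4:**
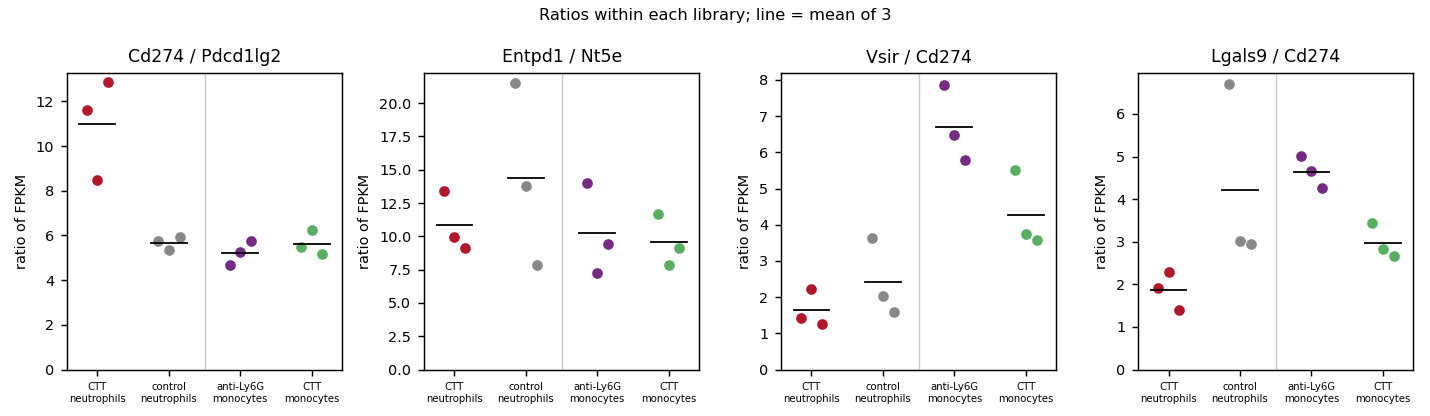
Ratios of FPKM between pairs of members within each library, with 1 point per library and the mean of 3. The Cd274 to Pdcd1lg2 ratio is 8.48 or more in CTT neutrophils and 6.24 or less in the other 3 groups.

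The binding partners of the ligands were read alongside them. Among 7 tested partner genes, 0 were called in neutrophils, where 0.567% of all tested genes were. In monocytes 3 rose and 1 fell (57.1% called, against 15.3% of all tested genes). PD-1 itself was scarce: Pdcd1 had 1.40, 2.30 and 1.44 CPM in anti-Ly6G monocytes, against 0.843, 0.678 and 0.379 CPM in CTT monocytes (log2 fold change 1.44, SE 0.41, edgeR adjusted p = 0.0464). Cd80, a costimulatory ligand that also binds PD-L1, fell to 16.1, 16.9 and 17.0 CPM in anti-Ly6G monocytes, against 25.2, 21.1 and 23.2 CPM in CTT monocytes (−0.48, SE 0.10, edgeR adjusted p = 0.0127). In neutrophils Cd80 had 29.4 ± 6.91 CPM after CTT and 17.1 ± 2.58 CPM in control (SD, n = 3 each), a log2 fold change of 0.78 that did not pass (edgeR adjusted p = 0.218). Selplg, which encodes the selectin ligand PSGL-1, a partner of VISTA at acidic pH, rose in monocytes to 541 ± 19.995 CPM, against 410.4 ± 47.3 CPM (0.40, edgeR adjusted p = 0.0153). In neutrophils Selplg had 557 ± 29.7 CPM after CTT and 382 ± 37.7 CPM in control. The groups did not overlap, but this did not pass (0.55, edgeR adjusted p = 0.143). P4hb, a disulfide isomerase that binds galectin-9, rose by 0.44 (edgeR adjusted p = 0.031). The TIM-3 gene Havcr2 had 38.9 ± 4.86 CPM in anti-Ly6G and 40.0 ± 1.12 CPM in CTT monocytes (−0.04, edgeR adjusted p = 0.821).

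Genes of nucleotide and adenosine turnover changed in either direction in monocytes. Of 16 tested enzymes and transporters, 2 rose and 3 fell (31.2% called, against 15.3% of all tested genes). Pnp, the purine nucleoside phosphorylase gene, rose and is named after its value was seen. Bst1 (CD157), an ectoenzyme related to CD38, rose to 57.2, 64.0 and 50.4 CPM with anti-Ly6G, against 21.4, 21.3 and 22.3 CPM (1.40, SE 0.09, edgeR adjusted p = 0.000106). Cd38, which cleaves extracellular NAD, fell to 143 ± 9.08 CPM, against 192 ± 5.64 CPM (−0.42, SE 0.06, edgeR adjusted p = 0.00355), Enpp1, which cleaves ATP to AMP, fell by 0.59 (edgeR adjusted p = 0.00411), and Ada, the deaminase that removes adenosine, fell by 0.38 (edgeR adjusted p = 0.0306). In neutrophils 1 of 17 rose, again Bst1, at 36.0, 39.9 and 40.6 CPM after CTT, against 12.4, 15.45 and 9.29 CPM in control (1.65, SE 0.21, edgeR adjusted p = 0.0299). In either cell type the Bst1 groups did not overlap. The mean sums of neutrophil, classical monocyte and NK cell markers were higher in the same groups, and a link to Bst1 was not tested.

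Of 14 tested adenosine and ATP receptor genes, 0 were called in neutrophils, where 0.567% of all tested genes were. P2ry2, P2ry10 and P2ry13, named after their values were seen, were higher after CTT without overlap. In monocytes 4 rose and 2 fell (42.9% called, against 15.3% of all tested genes). Adora2b, the low-affinity adenosine receptor gene, rose to 10.4, 6.21 and 7.004 CPM with anti-Ly6G, against 4.43, 4.22 and 3.62 CPM (0.94, SE 0.22, edgeR adjusted p = 0.0227), and its groups did not overlap. The ADP receptor gene P2ry1 rose by 1.06 (edgeR adjusted p = 0.00923) and the UDP receptor gene P2ry6 by 0.58 (edgeR adjusted p = 0.0126). Adora2a, the high-affinity adenosine receptor gene, had 14.3 ± 1.61 CPM with anti-Ly6G and 13.4 ± 2.24 CPM with CTT alone (0.09, SE 0.15, edgeR adjusted p = 0.729). Adora3 also rose, and P2ry12 and P2ry13 fell, named here after their values were seen.

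Known regulators of PD-L1 and interferon-gamma targets did not pass in neutrophils (0 of 15 and 0 of 12). In monocytes 3 of 15 regulators rose and 2 fell (33.3% called, against 15.3% of all tested genes). Those that fell were Myc and Cmtm4, named after their values were seen. Cmtm6, which protects PD-L1 protein from degradation, rose to 251 ± 5.57 CPM with anti-Ly6G, against 196 ± 4.12 CPM (0.36, SE 0.05, edgeR adjusted p = 0.00323). The transcription factor gene Stat3 rose by 0.38 (edgeR adjusted p = 0.00208) and the interferon-gamma receptor gene Ifngr2 by 0.38 (edgeR adjusted p = 0.00439). Of 13 interferon-gamma targets 2 rose and 0 fell (15.4% called, against 15.3% of all tested genes). Irgm1 rose by 0.35 (edgeR adjusted p = 0.0263). Nos2, inducible nitric oxide synthase, rose to 3.84 ± 1.03 CPM against 0.103 ± 0.0653 CPM (edgeR adjusted p = 0.000381). Over those 13 targets the median change was 0.00 on the log2 scale, as over all genes.

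Of 5 other galectin genes tested in monocytes (the list includes the binding protein gene Lgals3bp), 2 rose, where 10.2% of all tested genes did, and the list's median was −0.13 on the log2 scale. Lgals3 rose to 381 ± 35.6 CPM, against 219 ± 38.1 CPM (0.80, SE 0.12, edgeR adjusted p = 0.0036), and Lgals1 to 154 ± 22.2 CPM, against 78.9 ± 17.4 CPM (0.97, SE 0.15, edgeR adjusted p = 0.0042). The other 3, named after their values were seen, did not pass, with log2 fold changes of −0.15 for Lgals3bp, −0.23 for Lgals4 and −0.13 for Lgals8. Of 25 other checkpoint genes tested in monocytes, 2 rose and 1 fell (12% called, against 15.3% of all tested genes). Ceacam1, an inhibitory adhesion molecule that can bind TIM-3, rose by 0.87 (edgeR adjusted p = 0.000192), Tnfsf14 (LIGHT) rose by 0.36 (edgeR adjusted p = 0.0383) and Cd86, the costimulatory ligand, fell by 0.56 (edgeR adjusted p = 0.0111). In neutrophils 0 of 24 and 0 of 5 were called in these lists.

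**Figure D5:**
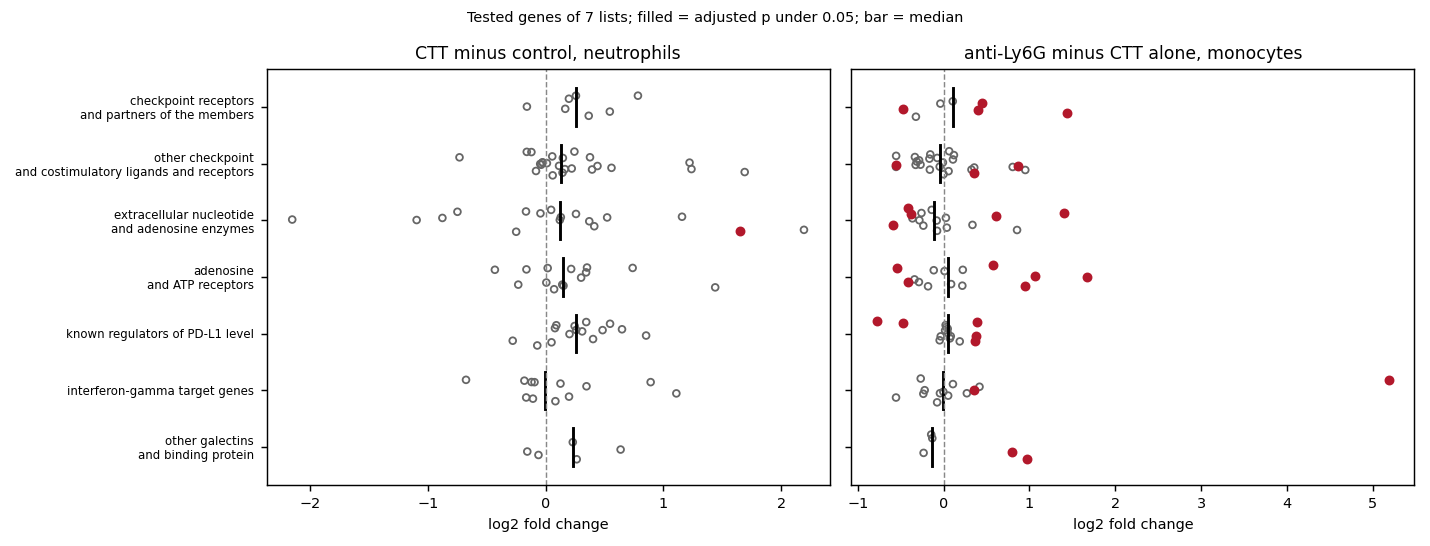
Log2 fold change of every tested gene of the 7 pathway lists, CTT minus control neutrophils on the left and anti-Ly6G minus CTT monocytes on the right (the horizontal ranges differ), filled at an adjusted p under 0.05, with a bar at each list's median. Bst1 (1.65) is the 1 filled gene on the left, and Nos2 lies farthest to the right in monocytes.

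Likeness to a member was measured over all 12 libraries as the root-mean-square difference of log2 CPM, each gene centred on its mean, among 12787 other genes. Zc3h12a (0.12) and Zc3h12c (0.14) lay closest to Cd274, where the median gene lay at 0.73. Tyrobp (0.09) and Rab24 (0.10) were closest to Vsir (median gene 0.49), and Sf3b6 (0.08) and 0610010K14Rik (0.09) to Lgals9 (0.43). Tent2 (0.10) was among the genes closest to Entpd1 (0.41). Bmyc and Limd2 (0.13 each) were closest to Pdcd1lg2 (0.47), and Tbx21 (0.172) and Lipc (0.175) to Nt5e (0.65). Among the members the closest pair was Vsir and Entpd1 (0.34) and the farthest Cd274 and Vsir (0.87). The neighbours Cd274 and Pdcd1lg2 differed by 0.45.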

How the data were processed

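Per the labels' protocols, RNA was prepared with TRIzol and sequenced from VAHTS Universal V6 libraries. The submitters' processing notes name HISAT2, HTSeq and the mm10 build; the sources used here give no annotation or strand setting. The authors deposited whole-number counts per gene in 1 table per cell type (16805 and 16954 genes) beside FPKM, which are scaled to gene length and library depth. Every column matched a sample by the code in its label (0 left out).

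Counts were tested in R 4.3.3 with edgeR 4.0.16, per cell type: filterByExpr, TMM scaling, the quasi-likelihood F test (two-sided) and Benjamini-Hochberg adjustment over all tested genes, threshold 0.05. SE is the absolute log2 fold change divided by the square root of F. CPM used TMM-scaled library sizes. FPKM served for levels between genes and for ratios. Alternatives used DESeq2 1.42.0, limma 3.58.1, other scalings, filters and fewer libraries. The members, lists and tests were chosen with earlier results of these data known, and the ratios after the members' levels were seen. From each list up to 3 called genes of smallest p were named, plus 7 partner genes in any case.

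Of the motifs searched and the genes ranked by likeness, 1 each is not reported here. The fits were tested on simulated data. Any 2 libraries differed by more than counting noise (chi-square per degree of freedom of at least 12.6).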

Additional observations from a re-analysis of the deposited data

How the results depend on the processing

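Every member kept its direction in all 18 alternatives of each comparison except Pdcd1lg2 in neutrophils. In neutrophils 0 of 6 members were called in all 18, while all called genes numbered 74, but 562 in DESeq2, 45 with limma-trend on log2(FPKM + 1), 637 with all 12 libraries in one fit and 0 to 288 when 1 library was left out (288 without control replicate 1, 0 without any other). Leaving out 1 library gave Cd274 0.62 to 1.10 and Pdcd1lg2 −0.34 to 0.093 (0.021 without CTT replicate 1, 0.067 and 0.093 without control replicate 2 or 3). In monocytes Lgals9 stayed called throughout. Vsir was not called with DESeq2 size factors in edgeR (0.39), upper-quartile scaling (0.35), limma-trend on log2(FPKM + 1) (0.38) or all 12 libraries (0.38), with 0.32 to 0.53 when 1 library was left out; CTT replicate 1 was the only library whose removal kept the call. Cd274 was called in DESeq2 (−0.27; −0.33 to −0.19 with 1 library left out), and Entpd1 in DESeq2 (−0.29), upper-quartile scaling (−0.32) and library totals (−0.30). The members called were 2, but 1 with DESeq2 size factors, limma-trend on log2(FPKM + 1) or all 12 libraries, 3 with library totals, 4 in DESeq2, and 1 to 3 with 1 library left out. All called genes numbered 2035 (1354 rose, 681 fell), 500 with all 12 libraries and 938 to 2855 with 1 library left out; upper-quartile scaling gave 1069 that rose and 1030 that fell. The cause of these changes was not tested; fits with fewer libraries have fewer samples.

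The replicate numbers were not taken as pairs, since the labels do not say whether they pair libraries. Same-numbered libraries deviated together at 0.01 to 0.20 in neutrophils and −0.03 to 0.09 in monocytes. In each, 4 of 6 libraries correlated best with their own number, so these values do not settle the matter. With the replicate number as a block in the same edgeR test, 5 genes in place of 74 were called in neutrophils (0 of 6 members), and in monocytes 4 of 6 members were, Cd274 (−0.26) and Entpd1 (−0.27) being added. Nt5e, at 114 to 527 reads, and Pdcd1lg2, at 313 to 643, rest on the fewest reads.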
